A study of Homo sapiens with 12 samples.

Results

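CXCL10, CCL17, CCL22, CCL5, IL6, IL13, IL9, IL5, CSF2 and IL2RA are cytokine and chemokine genes, with 1 receptor gene, known for their expression by Hodgkin Reed-Sternberg cells. They were followed in HDLM-2 cells, an established human Hodgkin lymphoma line, on Illumina bead arrays. The genes were taken by symbol from the platform's probe table and kept when a probe was above background in at least 1 group. Of the 10 genes listed, 8 had a probe and 6 were kept, out of 10529 genes tested in the series. The 6 were CXCL10, CCL17, CCL22, CCL5, IL6 and IL2RA, and each was above background on 12 of 12 arrays. IL13 and IL5 had probes that were not above background, and IL9 and CSF2 were not analysed here.

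There were 4 groups of 3 arrays, with the arrays of each group lettered A, B and C. Cells received 100 nM givinostat together with 5 µM sorafenib (the combination), 100 nM givinostat alone, 5 µM sorafenib alone, or neither drug (control), and RNA was taken after 24 h. Givinostat inhibits histone deacetylases, and sorafenib inhibits RAF and several receptor tyrosine kinases. All groups were cultures of this 1 line, so no other cells were there to supply or answer the cytokines. The labels name no vehicle for the control and leave unstated whether the 3 arrays stand for separate cultures, so p-values reflect only array-to-array spread, which may be technical.

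In Hodgkin lymphoma the malignant cells are few and lie among T cells, eosinophils, macrophages and other immune cells. Reed-Sternberg cells are known for high nuclear factor kappaB and JAK-STAT activity, and both pathways drive cytokine genes. CCL17 and CCL22 bind CCR4 on type 2 helper and regulatory T cells, CCL5 draws T cells and monocytes, and CXCL10 binds CXCR3 on activated T cells and natural killer cells. IL6 signals through STAT3, IL13 through STAT6, and IL5 acts on eosinophils. IL2RA is CD25, the alpha chain of the interleukin 2 receptor.

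The markers expected of the line were present: TNFRSF8 (CD30), FUT4, CD40, IRF4, CD274, TRAF1 and FSCN1 were above background in at least 1 group, as was CCL17, also on that marker list but kept here by the same criterion. B-cell markers were above background for 1 of 6 with a probe (MS4A1), with CD79A, CD79B and PAX5 below it. Of 8 T-cell markers, CD2 and CD247 were above background and CD3D, CD3E and CD3G were not. The counts for other cell types were 3 of 8 for myeloid cells (CD14 and LYZ were not above background), 2 of 5 for natural killer cells, 1 of 6 for fibroblasts (COL1A1) and 1 of 4 for endothelium. The summed T-cell markers lay at 26898 to 29544 units in combination cells, 31568 to 33717 in givinostat cells, 34294 to 35769 in sorafenib cells and 32980 to 35388 in control cells. COL1A1 lay at 191 to 215 units with the combination, 134 to 197 with givinostat, 51.1 to 85.1 with sorafenib and 53.0 to 67.0 in control. It was above background on 1 of 3 sorafenib arrays and 0 of 3 control arrays, so the control readings are no measured level. Against the lowest signal above background its rise was at least 2.64-fold with the combination and 2.09-fold with givinostat. Only those groups had COL1A1 above background on every array, the rule for entering the test. That selection favours a rise there. With the combination CD247 changed by -0.58 (adjusted p = 4.54e-04, limma), CD68 by 0.48 (0.00616), CSF1R by -0.59 (0.02, lost with median scaling at 0.0562) and TNFRSF8 by -1.41 (3.59e-04), and with givinostat CD247 changed by -0.40 (0.00641), CSF1R by -0.98 (0.0013) and TNFRSF8 by -1.15 (0.00192). CD2 went the other way from CD247 with givinostat, at 0.40 (adjusted p = 0.00468), a call lost with median scaling (0.25, adjusted p = 0.2). Of the other Reed-Sternberg markers, FSCN1 rose with the combination (0.50, adjusted p = 0.00545, limma) and TRAF1 fell (-0.28, adjusted p = 0.0369). CCL17, FUT4, CD40, IRF4 and CD274 did not pass there. With givinostat TRAF1 (-0.64, adjusted p = 4.78e-04), IRF4 (-0.54, 0.0158) and CD40 (-0.35, 0.0497) fell, as did CCL17, while FUT4, CD274 and FSCN1 did not pass. With sorafenib TRAF1 rose (0.43, adjusted p = 0.0328, limma), as did CCL17, and the other Reed-Sternberg markers did not pass. The natural killer marker NKG7 fell with the combination (-0.78, adjusted p = 0.026, limma). It was above background on 0 of 3 arrays there and on 2 of 3 control arrays, a fall of at least 1.18-fold. The part of these markers in the results was not tested. Before normalization, mean intensity lay between 1034 and 1629.7 units, lowest on array C of the sorafenib group. Sorafenib array C also stood apart from its group, with a root mean square deviation of 0.221 log2 units against 0.147 to 0.175 for the other arrays. Calls of genes named under sorafenib are therefore also given without it, apart from that of TRAF1.

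The promoter bases of 4 of the 6 genes came from RefSeq on GRCh38.p14, as the 250 bases before each start, written 5′ to 3′ along the gene's strand. They are shown because the best known regulators of these genes act there, and because CXCL10 and IL6, which moved in opposite directions with givinostat, both carry a kappaB match. CXCL10 is read from the minus strand at chr4:76023498-76023747, IL6 from the plus strand at chr7:22726950-22727199, and IL2RA from the minus strand at chr10:6062368-6062617. Capitals mark the motif matches.
CXCL10: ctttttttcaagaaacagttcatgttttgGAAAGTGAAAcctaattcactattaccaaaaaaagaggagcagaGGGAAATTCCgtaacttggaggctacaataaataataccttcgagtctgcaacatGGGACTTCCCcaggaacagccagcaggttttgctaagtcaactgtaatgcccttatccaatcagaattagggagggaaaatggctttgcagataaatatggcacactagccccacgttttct
IL6: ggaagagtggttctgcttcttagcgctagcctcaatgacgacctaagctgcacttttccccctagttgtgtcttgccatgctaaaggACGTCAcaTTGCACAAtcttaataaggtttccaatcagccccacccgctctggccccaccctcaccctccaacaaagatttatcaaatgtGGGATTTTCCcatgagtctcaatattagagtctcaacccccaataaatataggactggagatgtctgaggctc
IL2RA: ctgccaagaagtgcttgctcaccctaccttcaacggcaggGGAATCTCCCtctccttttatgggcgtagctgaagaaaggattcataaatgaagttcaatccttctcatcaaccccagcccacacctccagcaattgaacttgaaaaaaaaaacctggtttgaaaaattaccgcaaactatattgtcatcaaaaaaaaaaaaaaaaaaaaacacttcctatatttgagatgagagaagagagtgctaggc
In the CXCL10 window the first run of capitals matches the interferon-stimulated response element (GAAA, any 2 bases, GAAA), beginning 221 bases before the start. The other runs there match kappaB (GGGA, any 2 bases, T, any base, CC), at 177 and 122 bases. In the IL6 window the runs match, in order, the cAMP response element core on the opposite strand (TGACGT; 163 bases), the C/EBP motif (TTGC, any 2 bases, AA; 155 bases) and kappaB (73 bases). IL2RA held 1 kappaB match, on the opposite strand, 210 bases before its start. Both strands were searched and no matches overlapped. AP-1 (TGANTCA), STAT (TTC and GAA, 3 bases apart) and STAT6 (TTC and GAA, 4 bases apart) letters had no match in these windows, and CCL22 (chr16:57358533-57358782, plus strand) had 0 matches to any of the 7 motifs. Of 35116 promoter windows of this length, 4.22% held the kappaB letters, 3.02% the interferon element, 9.05% the C/EBP letters and 7.1% the cAMP response element core. The kappaB letters were written with the CXCL10 and IL6 windows in view, and a match is a stretch of letters, not a shown binding site.

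Across the 4 groups, all 6 genes differed by limma's moderated F test at an adjusted p under 0.05, beside 46.5% of the 10529 genes tested. CXCL10 rose with givinostat and fell with sorafenib. IL6 and IL2RA fell with givinostat, alone or with sorafenib. CCL17 and CCL22 were highest under sorafenib, by less certain margins, and CCL5 rose with the combination. With the combination against control 2 genes rose and 2 fell, where 41.4% of all genes changed (20.9% higher, 20.5% lower). With givinostat against control 1 rose and 3 fell, where 33.3% of all genes changed (17.6% higher, 15.7% lower). With sorafenib against control 2 rose and 1 fell, where 4.55% of all genes changed (2.97% higher, 1.58% lower), and without sorafenib array C only the fall of CXCL10 passed. The median log2 change of the 6 genes was 0.12 for the combination, -0.35 for givinostat and 0.06 for sorafenib, beside medians over all genes of -0.02, -0.02 and 0.00. With median scaling, which moved the median over all genes to -0.09, -0.12 and -0.17, these were 0.07, -0.42 and -0.13, so the value under sorafenib changed sign. The 3 comparisons share the control arrays. In RNA from a whole culture, fewer expressing cells and less RNA per cell cannot be told apart.

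**Figure D1:**
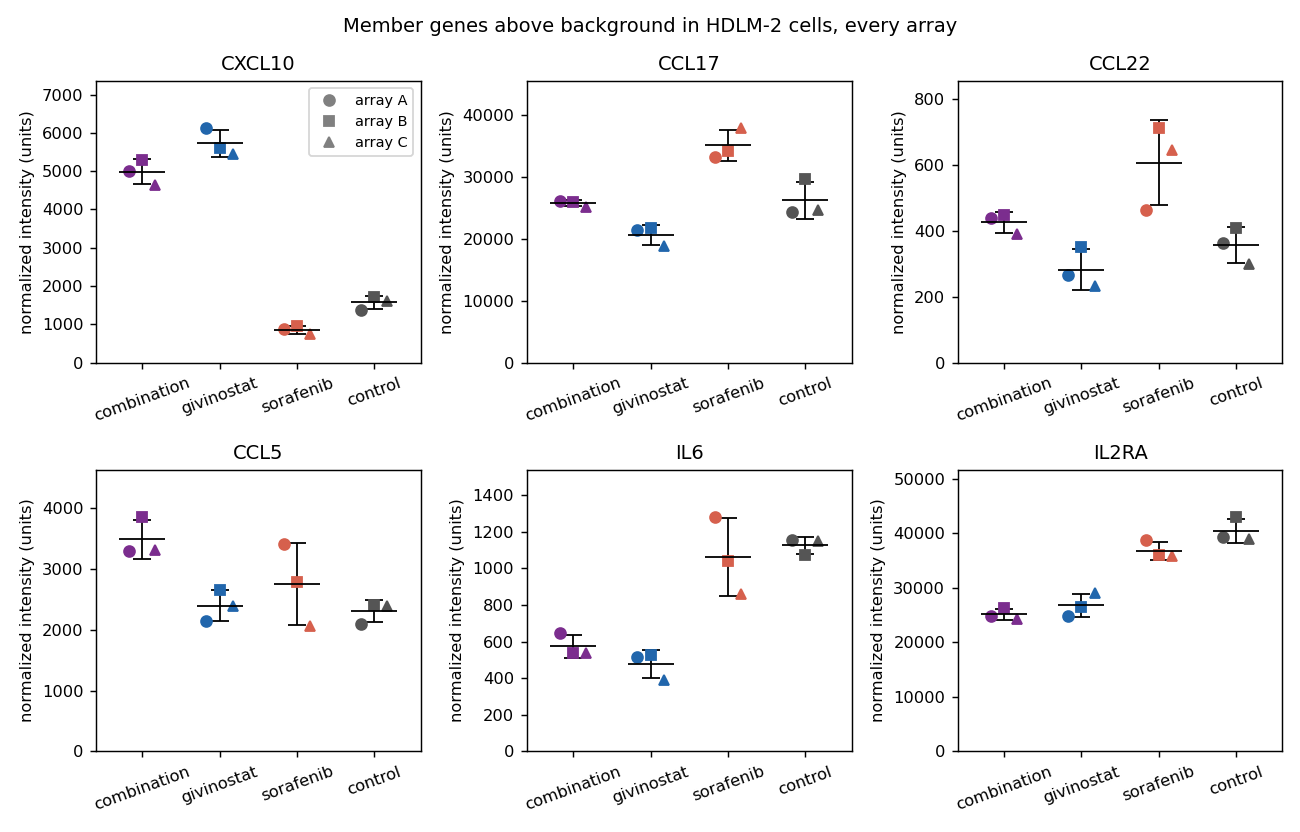
Normalized intensity (units, linear axis from 0) of the 6 genes on each of the 12 arrays, by group; symbols give the array letter, long bars the mean and short bars the SD of 3 arrays. CXCL10 lies at 4647 units or above on every array with givinostat and at 1719 or below on the others, while IL6 and IL2RA lie lowest on the arrays with givinostat.

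CXCL10, the chemokine that draws CXCR3-bearing T cells, had 5014, 5293 and 4647 units in combination cells, 6128, 5601 and 5440 units in givinostat cells, 881, 955 and 739 units in sorafenib cells, and 1383, 1719 and 1618 units in control cells. These are background-corrected, quantile-normalized probe intensities. Each group's arrays lay apart from those of every other group. The means were 4984 ± 324 units with the combination, 5723 ± 360 with givinostat, 858 ± 110.1 with sorafenib and 1573 ± 173 in control (SD, n = 3 each). Givinostat raised CXCL10 3.65-fold over control, a log2 change of 1.87 ± 0.12 (SE of the limma fit, adjusted p = 5.58e-07). The combination raised it 3.18-fold (1.67 ± 0.12, adjusted p = 1.23e-06, limma). Sorafenib lowered it to 0.545 times control, a log2 change of -0.88 ± 0.12 (adjusted p = 0.00242, limma), and without sorafenib array C the change was -0.77 (adjusted p = 0.00815). Those 3 calls held in every alternative processing and with each array left out. The range of the CXCL10 group means, 2.74 log2 units, ranked 22 among the 10529 genes tested.

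The order of CXCL10 was givinostat, combination, control and sorafenib, from high to low. The combination and givinostat did not differ by limma (log2 difference -0.20, 95% interval -0.46 to 0.06, adjusted p = 0.418), and the next steps down, combination over control and control over sorafenib, passed. The combination stood 5.83-fold above sorafenib alone (log2 2.54 ± 0.12, adjusted p = 8.4e-08, limma). On the log2 scale the single-drug changes summed to 0.99, while the combination gave 1.67. That departure from the sum was 0.68 ± 0.17 (95% interval 0.31 to 1.04), with an unadjusted p of 0.00154 and an adjusted p of 0.21 by limma, and so did not pass over all genes. Sorafenib thus moved CXCL10 by -0.88 from control and by -0.20 from givinostat, and the difference between these moves is the value that failed the adjustment.

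The CCR4 chemokines CCL17 and CCL22, encoded close together on chromosome 16, were both highest in sorafenib cells and lowest in givinostat cells. CCL17 had 26147, 26056 and 25261 units in combination cells, 21413, 21764 and 18848 in givinostat cells, 33287, 34191 and 37972 in sorafenib cells, and 24351, 29757 and 24780 in control cells. The sorafenib arrays lay above all others and the givinostat arrays below all others, while combination and control arrays overlapped. Sorafenib raised CCL17 1.34-fold over control (log2 0.42 ± 0.10, adjusted p = 0.0396, limma), and givinostat lowered it (log2 -0.34 ± 0.10, adjusted p = 0.0218, limma). The combination did not differ from control (log2 -0.02 ± 0.10, adjusted p = 0.894). Of the steps in the CCL17 order, sorafenib over control passed, and control over combination and combination over givinostat (adjusted p = 0.137, limma) did not. Sorafenib and givinostat, at its ends, differed by -0.77 for givinostat against sorafenib (adjusted p = 1.64e-04, limma).

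The CCL17 rise under sorafenib is the least settled of these calls. It was lost in 14 of 21 alternatives, at adjusted p up to 0.28. Before normalization the sorafenib arrays read 30835, 30442 and 27050 units, against 25914, 37734 and 25888 units on the control arrays, so they overlapped. With median scaling instead of quantile normalization the log2 change was 0.25 (adjusted p = 0.28), relative to a median over all genes of -0.17 in that scaling. It also missed the threshold when control A or C, any sorafenib array, givinostat A or B, or any combination array was left out, with 0.37 (adjusted p = 0.103) without sorafenib array C. The fall with givinostat was lost without control B (log2 -0.25, adjusted p = 0.0877), without givinostat C (log2 -0.28, adjusted p = 0.0854) and with only those groups in the fit (log2 -0.34, adjusted p = 0.0517).

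CCL22 had 439, 446 and 389 units in combination cells, 266, 350 and 231 in givinostat cells, 463, 711 and 643 in sorafenib cells, and 363, 408 and 300 in control cells. The sorafenib arrays lay above those of every other group, and control arrays overlapped with both other groups. Sorafenib raised CCL22 1.68-fold over control (log2 0.75 ± 0.18, adjusted p = 0.0413, limma). The values with givinostat (log2 -0.35 ± 0.18, adjusted p = 0.166) and with the combination (0.26 ± 0.18, adjusted p = 0.281) did not pass. The call under sorafenib was lost in 12 of 21 alternatives, among them median scaling (0.61, adjusted p = 0.0674). Leaving out any control array, sorafenib B or C, givinostat A or any combination array had the same outcome, at adjusted p up to 0.142, and without sorafenib array C the change was 0.70 (adjusted p = 0.106). Givinostat against sorafenib passed in every alternative, with a log2 change of -1.10 ± 0.18 (adjusted p = 8.0e-04, limma). No step between neighbours in the CCL22 order, sorafenib, combination, control and givinostat, passed the test, and the step from sorafenib to the combination came closest (-0.49 for the combination against sorafenib, adjusted p = 0.0559). That step passed in 8 of 21 alternatives, at adjusted p down to 0.0143.

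CCL5, which attracts T cells, eosinophils and monocytes, had probes that disagreed. On the brighter one, which stood for the gene, it had 3294, 3860 and 3319 units in combination cells, 2143, 2660 and 2389 in givinostat cells, 3412, 2791 and 2054 in sorafenib cells, and 2102, 2415 and 2399 in control cells. The combination arrays lay above the givinostat and control arrays, and the sorafenib arrays overlapped with those of every other group. The combination raised CCL5 1.51-fold over control (log2 0.60 ± 0.16, adjusted p = 0.011, limma), a call lost with median scaling (0.44, adjusted p = 0.132). Givinostat alone (0.05, adjusted p = 0.827) and sorafenib alone (0.23, adjusted p = 0.452) did not pass, although the mean of the CCL5 probes passed with sorafenib (0.52, adjusted p = 0.032). No step between neighbours in its order, combination, sorafenib, givinostat and control, passed either.

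The dimmer CCL5 probe had 1917, 1447 and 1641 units in combination cells, 1358, 1604 and 1074 in givinostat cells, 2102, 1696 and 2219 in sorafenib cells, and 1018, 1148 and 1234 in control cells. Its sorafenib arrays were the highest group and lay above all control arrays. Fitted singly over 14039 probes, this probe rose with sorafenib (log2 0.82 ± 0.16, adjusted p = 0.0233, limma), where the brighter probe gave 0.23 (adjusted p = 0.469), but without sorafenib array C, a setting added after the data were seen, the dimmer probe gave 0.74 (adjusted p = 0.0663) and did not pass. Both probes rose with the combination, by 0.55 (adjusted p = 0.0184) on the dimmer and 0.60 (adjusted p = 0.0127) on the brighter. Sorafenib array C was the lowest of the 12 on the brighter probe and the highest on the dimmer, and without it the change of the brighter probe with sorafenib was 0.42 (adjusted p = 0.111).

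**Figure D2:**
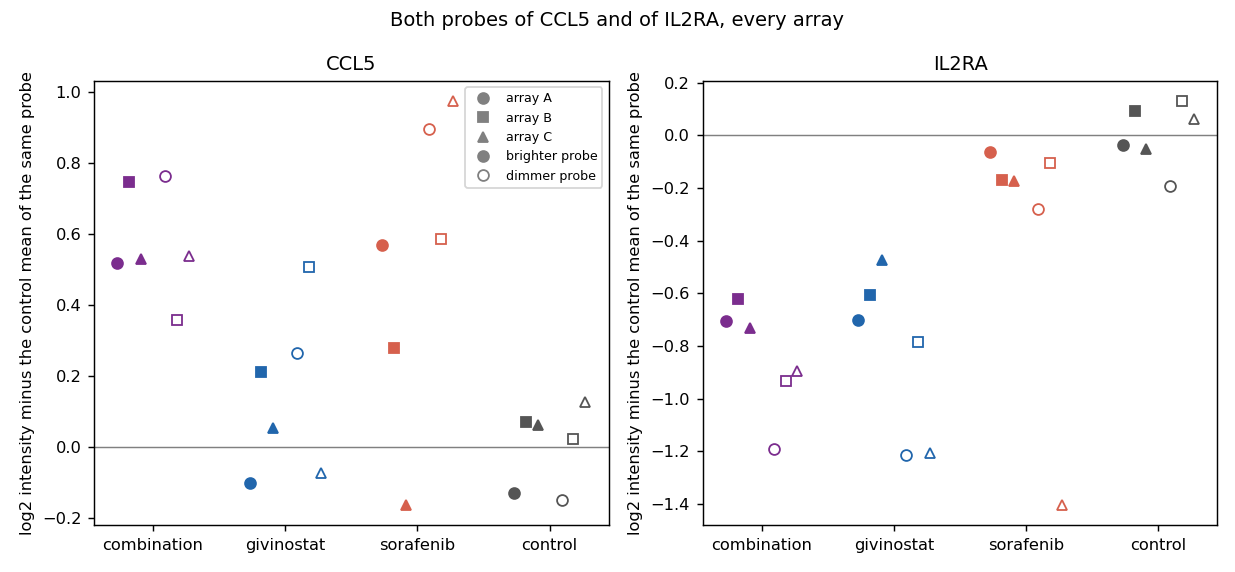
Both probes of CCL5 (left) and of IL2RA (right), as log2 intensity minus the control mean of the same probe, on each of the 12 arrays; filled symbols are the brighter probe, open symbols the dimmer, and shapes the array letter. Sorafenib array C lies at the bottom of its panel on the filled CCL5 symbols and at the top on the open ones, while IL2RA lies below control on both probes on every array with givinostat.

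IL6, a cytokine that signals through STAT3, had 647, 539 and 536 units in combination cells, 514, 528 and 390 in givinostat cells, 1282, 1039 and 859 in sorafenib cells, and 1156, 1071 and 1148 in control cells. Every array with givinostat lay below every array without it. The mean was 574 ± 63.1 units with the combination, 477 ± 76.4 with givinostat, 1059.9 ± 212 with sorafenib and 1125 ± 46.8 in control (SD, n = 3 each). Givinostat lowered IL6 to 0.421 times control (log2 -1.25 ± 0.15, adjusted p = 9.48e-05, limma), and the combination lowered it to 0.508 times control (log2 -0.98 ± 0.15, adjusted p = 3.82e-04, limma). Both calls held in every alternative and with each array left out, with the givinostat change between -1.36 and -0.97. Sorafenib did not pass (log2 -0.10 ± 0.15, 95% interval -0.44 to 0.23, adjusted p = 0.748). In the IL6 order, control and sorafenib did not differ by the test, sorafenib lay above the combination (-0.87 for the combination against sorafenib, adjusted p = 0.00112, limma), and combination and givinostat did not differ by it although their arrays did not overlap (0.27, adjusted p = 0.397).

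IL2RA, the CD25 chain that raises the affinity of the interleukin 2 receptor, had 24780, 26254 and 24308 units in combination cells, 24877, 26568 and 29070 in givinostat cells, 38689, 35936 and 35794 in sorafenib cells, and 39350, 43054 and 38924 in control cells on its brighter probe. All arrays with givinostat again lay below all arrays without it. Givinostat lowered IL2RA to 0.663 times control (log2 -0.59 ± 0.09, adjusted p = 3.75e-04, limma), and the combination to 0.621 times control (log2 -0.69 ± 0.09, adjusted p = 9.31e-05, limma). Those calls held in all alternatives, each array left out included. Sorafenib gave -0.14 ± 0.09 (adjusted p = 0.41) with arrays that lay below those of control. The dimmer IL2RA probe had 290, 347 and 356 units in combination cells, 285, 384 and 287 in givinostat cells, 545, 614 and 250 in sorafenib cells, and 579, 723 and 691 in control cells. Sorafenib array C was the lowest of the 12 there. Fitted singly, the dimmer probe fell by 1.07 ± 0.27 with givinostat (adjusted p = 0.0106, limma) and by 1.01 with the combination (adjusted p = 0.0119), so both probes fell with givinostat. Under sorafenib it had -0.60 (adjusted p = 0.241), and without sorafenib array C -0.19 (adjusted p = 0.561).

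IL13, a growth factor of Reed-Sternberg cells, was not above background on any array: its probe read 130.5 to 203.8 units before normalization, at detection p-values of 0.458 to 0.999. IL5, the eosinophil cytokine, had 0 of 12 arrays above background on each of its probes, with readings of 172.9 to 220.1 and 207.5 to 246.3 units. No change is given for either gene.

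**Figure D3:**
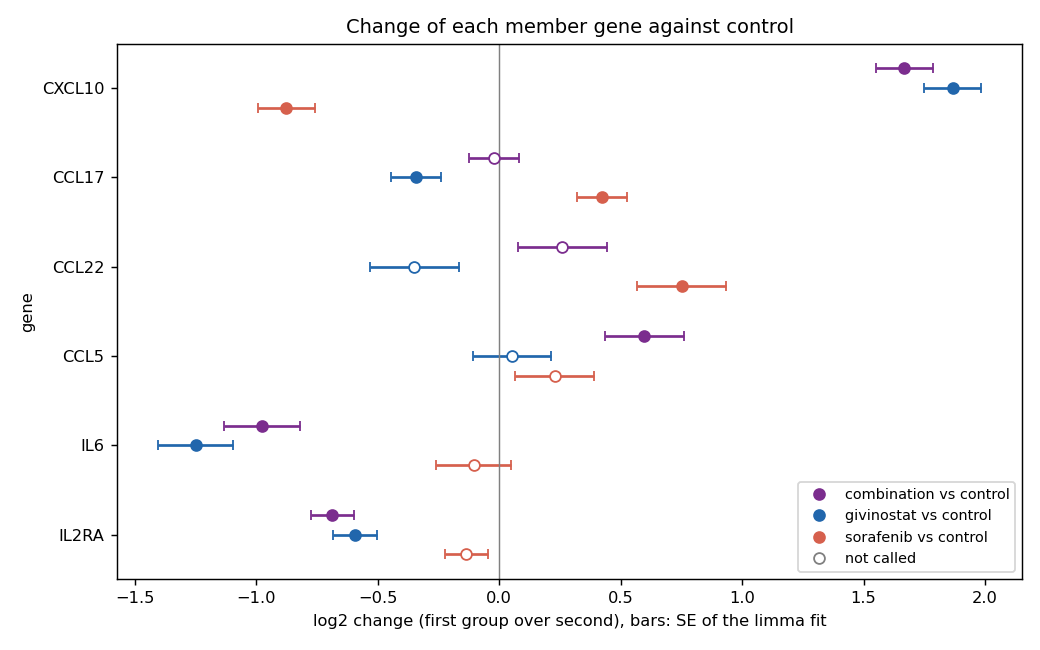
Log2 change of each gene against control for the combination, givinostat and sorafenib, with bars of 1 SE of the limma fit (n = 3 arrays a group); filled points passed an adjusted p under 0.05 and open points did not. CXCL10 lies at 1.67 and 1.87 with givinostat in the treatment and at -0.88 with sorafenib alone; IL6 and IL2RA lie left of 0 with givinostat.

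Adding sorafenib to givinostat moved 0 of the 6 genes past the threshold by limma, where 1.34% of all genes passed. At an unadjusted p under 0.05 there were 3, all higher with the combination: CCL17 (0.32), CCL22 (0.61) and CCL5 (0.54). CCL5, at an adjusted p of 0.116, passed without background correction (0.51, adjusted p = 0.0363) and without sorafenib array C (0.54, adjusted p = 0.0409). The dimmer CCL5 probe, fitted singly, gave 0.32 and did not pass with that array (adjusted p = 0.351, limma) or without it (adjusted p = 0.311). Adding givinostat to sorafenib raised CXCL10 and lowered CCL17 (log2 -0.44, adjusted p = 0.00568), IL6 and IL2RA (-0.55, adjusted p = 5.97e-04), 4 of 6 genes where 35.3% of all genes changed (17.8% higher, 17.5% lower). The CCL17 call was lost with median scaling (-0.37, adjusted p = 0.0713). Givinostat against sorafenib called 5 of 6, with CXCL10 higher and CCL17, CCL22, IL6 and IL2RA lower in givinostat cells, where 30.7% of all genes changed (16% higher, 14.7% lower). The IL2RA call in that comparison was lost with median scaling (-0.36, adjusted p = 0.0609). With the mean of each gene's probes 6 of 6 were called. Fitted singly, the dimmer CCL5 probe was lower in givinostat cells (-0.59, adjusted p = 0.0184, limma), but not past the threshold without sorafenib array C (-0.51, adjusted p = 0.0614). The dimmer IL2RA probe did not pass (-0.47, adjusted p = 0.22, limma), but did without that array (-0.88, adjusted p = 0.00258). The departure from the sum of the single-drug changes passed for 0 of 6 by limma, where 0.019% of all genes passed, and 1 of 6 (CXCL10) had an unadjusted p under 0.05. Its size for CCL17, CCL22, CCL5, IL6 and IL2RA lay between -0.14 and 0.38 on the probes that stood for the genes, with intervals that include 0. The dimmer probes, fitted singly, lay outside that range and did not pass. For CCL5 the dimmer probe gave -0.50 ± 0.23 (adjusted p = 0.481, limma), opposite in sign to the brighter probe at 0.32. For IL2RA it gave 0.66 ± 0.38 (adjusted p = 0.574, limma).

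Over the 12 arrays the log2 levels of CCL17 and CCL22 had a Pearson correlation of 0.908, those of IL6 and IL2RA 0.873, and those of CXCL10 and IL6 -0.878. The arrays share group means, so these values describe the 4-group pattern and nothing finer. Among 4900 other genes that differed among the groups, the most like CXCL10 were SAT1 (r = 0.990), which encodes a polyamine acetyltransferase, PRDM1 (r = 0.989), which encodes the plasma-cell regulator BLIMP1, and MYH10 (r = 0.984), a non-muscle myosin. SAT1 rose by 0.97 with the combination and by 0.99 with givinostat, and had -0.23 with sorafenib (adjusted p = 0.14, limma). The genes most like IL6 were BATF3 (r = 0.967), a partner of AP-1 factors, C22orf39 (0.966) and KCTD15 (0.966), and BATF3 fell by 0.61 with the combination and by 0.72 with givinostat. UNG and CDC45, genes of DNA repair and replication (r = 0.979 each), and MRPL11 (0.976) lay closest to IL2RA. For CCL17 they were TUBE1 (0.964), CYP4Z1 (0.952) and LINC02053 (0.945), for CCL22 C4BPB (0.945), MTHFD2 (0.929) and ATF3 (0.922), and for CCL5 GARRE1 (0.923), ADGRE5 (0.873) and RABL2A (0.869).

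Receptors for these ligands, listed together with the partner chains of IL2RA (IL2RB and IL2RG), were measured for 10 of 16 listed genes. With the combination 1 rose and 3 fell, with givinostat 2 rose and 2 fell, and with sorafenib only IL2RB fell (-0.40, adjusted p = 0.047, limma), a call lost in 15 of 21 alternatives (without sorafenib array C -0.31, adjusted p = 0.111). The share called was 40% with the combination and 40% with givinostat and 10% with sorafenib, beside 41.4%, 33.3% and 4.55% of all genes. With median scaling 1 rose and 2 fell with the combination, 1 rose and 2 fell with givinostat, and 1 fell with sorafenib. CCR1, a receptor of CCL5, was above background on 2 of 3 combination arrays, 3 of 3 givinostat arrays and 0 of 3 control arrays. Its rise was at least 1.05-fold with the combination and at least 1.54-fold with givinostat. The fitted changes passed (adjusted p = 3.24e-04 and 1.31e-05, limma), but these bounds were not tested. Of these groups only givinostat met the rule for entering the test, a selection that favours a rise there. IL4R, the shared chain of the IL4 and IL13 receptors, fell by 0.50 with the combination (adjusted p = 0.00178) and by 0.80 with givinostat (adjusted p = 9.08e-05). IL2RG, the common gamma chain that pairs with IL2RA, did not pass in those comparisons, with -0.16 (adjusted p = 0.135) and -0.19 (adjusted p = 0.086).

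Of 29 other cytokine and chemokine genes tested, 9 rose and 8 fell with the combination, 6 rose and 9 fell with givinostat, and 2 rose and 2 fell with sorafenib. The shares called were 58.6%, 51.7% and 13.8%, beside 41.4%, 33.3% and 4.55% of all genes. With median scaling 6 rose and 9 fell with the combination, 4 rose and 10 fell with givinostat, and 3 fell with sorafenib. LTA and LTB, the lymphotoxin chains, fell by 1.20 and 0.88 with the combination and by 1.56 and 1.31 with givinostat. LIF, which acts through the same signalling chain as IL6, fell by 1.47 with the combination and by 1.28 with givinostat (0.62 and 0.56 without background correction). IL26, of the IL10 family, rose by 1.18 ± 0.14 with the combination and by 1.66 ± 0.14 with givinostat (adjusted p = 4.72e-05 and 5.36e-06, limma). CXCL11, which shares CXCR3 with CXCL10 and lies beside it on chromosome 4, rose by 0.84 with the combination and by 0.97 with givinostat (0.41 and 0.49 without background correction). Under sorafenib CXCL11 had 0.41 ± 0.11 (adjusted p = 0.0562), where CXCL10 had -0.88, and the difference between the genes was not tested.

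**Figure D4:**
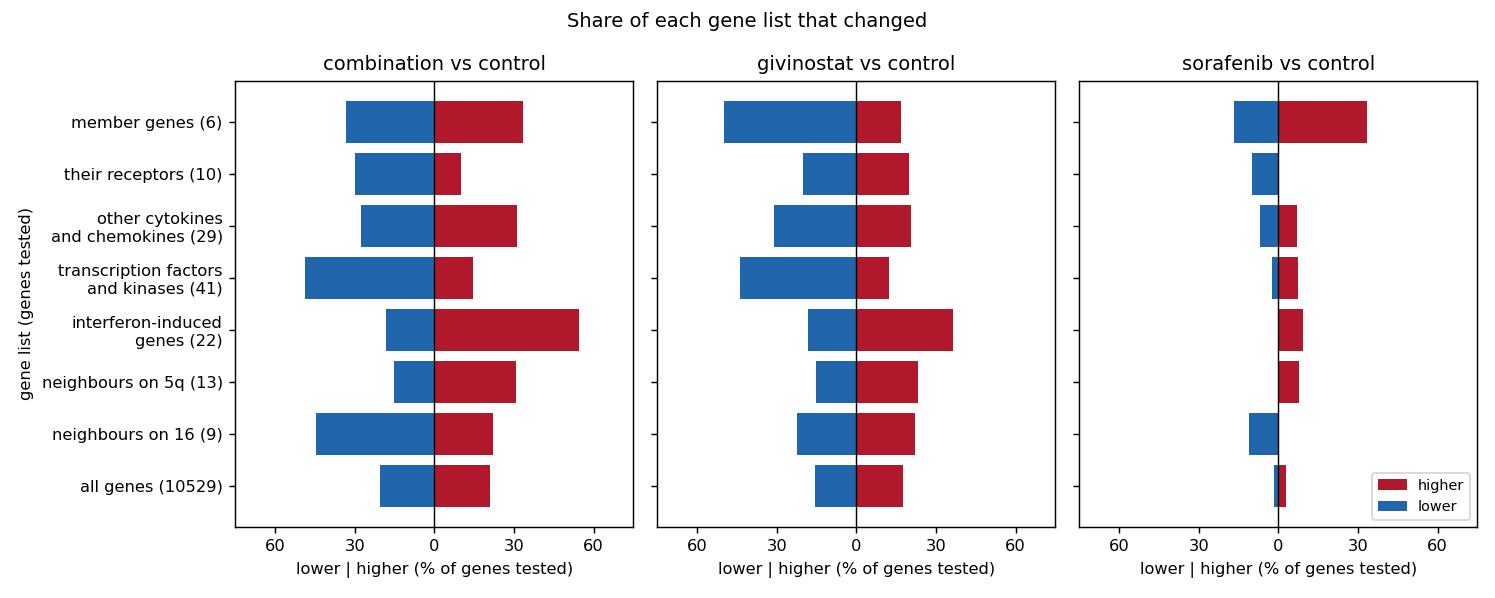
Share of each gene list that passed an adjusted p under 0.05, as a percentage of its genes tested (number in brackets), lower to the left and higher to the right of 0, in each comparison with control. The row of transcription factors and kinases, which also holds inhibitors, extends furthest to the left with givinostat among the lists of over 20 genes. The bottom row gives all 10529 genes.

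Transcription factors and kinases that act on these genes were called lower more often than higher with givinostat. The list also holds inhibitors such as NFKBIA, the SOCS genes and CISH, so activators and their brakes are counted together. Of 41 tested, 6 rose, 20 fell and 15 were not called with the combination. With givinostat 5 rose, 18 fell and 18 were not called. The medians were -0.32 and -0.24 beside -0.02 over all genes in each. With sorafenib 3 rose and 1 fell. The shares called were 63.4%, 56.1% and 9.76%, beside 41.4%, 33.3% and 4.55% of all genes. With median scaling 4 rose and 24 fell with the combination, 3 rose and 20 fell with givinostat, and 1 rose and 2 fell with sorafenib. RELB, a kappaB subunit, fell by 1.15 with the combination and by 1.44 with givinostat, and NFKBIA, the kappaB inhibitor that kappaB itself induces, fell by 1.09 and by 1.74. STAT6, the factor of IL13 signalling, fell by 0.65 with the combination and by 0.79 with givinostat (adjusted p = 1.6e-04 and 5.27e-05, limma). STAT5A fell by 1.20 and by 1.07, and its target CISH by 0.67 and by 0.90. BCL6, a repressor that shares binding letters with STAT6, fell by 0.92 and by 1.12. Whether these changes bear on the cytokine genes was not tested.

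Interferon-induced genes that are often raised with CXCL10 went both ways. Of 22 tested, 12 rose and 4 fell with the combination, 8 rose and 4 fell with givinostat, and 2 rose with sorafenib, with medians of 0.34, 0.17 and 0.16. With median scaling 8 rose and 6 fell with the combination, 7 rose and 6 fell with givinostat, and both rises with sorafenib were lost, where the median was -0.04. The shares called without that scaling were 72.7%, 54.5% and 9.09%, beside 41.4%, 33.3% and 4.55% of all genes. IDO1, which degrades tryptophan, rose by 2.42 ± 0.34 with the combination and by 2.12 ± 0.34 with givinostat (adjusted p = 1.51e-04 and 5.28e-04, limma). It was above background on 3 of 3 arrays of those groups and 1 of 3 control arrays. Those groups and not control met the rule for entering the test, a selection that favours a rise. RSAD2, an antiviral enzyme, rose by 1.81 and by 1.49, and IFIT1 by 1.07 and by 0.85. Without background correction these rises stayed past the threshold but were smaller, at 1.11 and 0.94 for IDO1, 0.83 and 0.65 for RSAD2, and 0.43 and 0.33 for IFIT1. PSMB9, an immunoproteasome subunit, fell by 0.63 and by 0.60, and IRF1, a factor that binds the interferon element, fell by 0.75 (adjusted p = 0.00494) and by 1.03 (adjusted p = 8.67e-04).

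Genes beside the cytokine loci were called in both directions. The gene lists overlap, so their counts and shares are not separate observations. IRF1 is on the transcription factor, interferon and 5q lists, and IRF7 and IRF9 are on the transcription factor and interferon lists. Of the other cytokine genes, CXCL11 is also on the interferon list, CX3CL1 on the chromosome 16 list and IL4 on the 5q list. Next to CCL17 and CCL22 on chromosome 16, of 9 listed genes tested 2 rose and 4 fell with the combination, 2 rose and 2 fell with givinostat, and with sorafenib only ADGRG1, an adhesion receptor gene, fell (-0.76, adjusted p = 0.0335, limma), a call lost in 5 of 21 alternatives (without sorafenib array C -0.57, adjusted p = 0.0791). The shares called there were 66.7%, 44.4% and 11.1%, and with median scaling 2 rose and 5 fell with the combination and 2 rose and 3 fell with givinostat. CX3CL1, the chemokine gene between them, fell by 0.54 with the combination and by 0.79 with givinostat, while ADGRG1 rose by 1.57 and by 2.30 (0.88 and 1.39 with the mean of its probes). In the cytokine cluster of chromosome 5q that holds IL13 and IL5, of 13 genes tested 4 rose and 2 fell with the combination, 3 rose and 2 fell with givinostat, and 1 rose with sorafenib. These are 46.2%, 38.5% and 7.69% of the list, beside 41.4%, 33.3% and 4.55% of all genes, and with median scaling 3 rose and 2 fell with the combination and 1 rose and 2 fell with givinostat. The gene called with sorafenib was P4HA2, which encodes a collagen prolyl hydroxylase subunit and rose by 1.53 with the combination, by 1.26 with givinostat and by 0.89 with sorafenib. When its probes were averaged, the sorafenib value did not pass (0.44, adjusted p = 0.0985), while without sorafenib array C it was 0.96 (adjusted p = 0.00143).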

How the data were processed

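Total RNA of HDLM-2 cells, 12 samples, was labelled with biotin and hybridised to Illumina HumanHT-12 V3 arrays. BeadStudio is named in the submitters' processing notes, with no version. The deposited non-normalized table holds an intensity per probe without background subtraction (48803 probes), and beside it a fraction that the file header calls a detection p-value. This deposited fraction rose with intensity (Spearman at least 0.992 in each array) and was read as 1 minus the detection p. The authors' second table holds linear intensity that matched a quantile normalization of the first within 0.305 units at the 99th percentile. Intensities were corrected with normexp from the detection p-values (offset 16), quantile normalized and put on log2 (limma 3.58.1, R 4.3.3). Probes entered where every array of 1 or more groups had a detection p under 0.05, and genes needed a probe with 1 symbol (28098 probes had 1, 13 several, 20692 none in the supplied platform table); the probe with the highest mean stood for the gene. The 4 group means shared 1 fit to the 12 arrays (degrees of freedom: 8 residual, 4.01 prior), with two-sided p-values adjusted by Benjamini-Hochberg over 10529 genes. A change counted at an adjusted p under 0.05. An "at least" fold was taken against the lowest signal above background. The number of arrays limits precision.

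Named genes were the 10 genes, the 3 genes most correlated with each, and up to 6 changed genes a list, of which those with calls that held are given by value. The genes and lists were chosen with earlier results of these data known. Promoter windows and chromosomes came from RefSeq (GRCh38.p14). The fit was tested on simulated data. Array letters were checked for pairing: deviations from group means correlated at -0.06 to 0.25 over 18 same-letter pairs, 5 of them above 0.1. Over 36 different-letter pairs the values were -0.24 to 0.12, 2 of them above 0.1. Same-letter pairs thus ran somewhat higher (median 0.03 against -0.02). The main fit did not take letters to pair arrays, and a block for array letter was an alternative. Alternatives were median scaling, no background correction, an offset of 50, 2 other detection filters, the mean of a gene's probes, fitting only the groups compared, the authors' normalized values, a block for array letter, and each array left out. The single probes of CCL5 and IL2RA without sorafenib array C were added after seeing the data.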

Additional observations from a re-analysis of the deposited data

Results flagged for a closer look

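CD2, a T-cell marker, had changes of opposite sign with sorafenib, neither of which passed. With sorafenib added to givinostat, all 3 combination arrays lay below all givinostat arrays, a log2 change of -0.23 (adjusted p = 0.212, limma). Under sorafenib alone all 3 arrays lay above control, at 0.14 (adjusted p = 0.386). Over the alternatives that change with sorafenib alone ran from -0.08 to 0.18, so its sign depended on the processing. The difference between these changes was -0.37 ± 0.13 (adjusted p = 0.326, limma) and did not pass the test.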

How the results depend on the processing

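All calls of CXCL10 and IL6 held in every alternative. Of the 6 genes, the number changed with sorafenib against control was 1 with median scaling, without a detection filter and when only the groups compared were fitted, 4 with the mean of probes, and between 1 and 3 with an array left out. It was 1 for the combination against givinostat without background correction and on the authors' normalized values, which gave the same numbers, and 0 to 1 with an array left out. With an array left out it was 3 to 4 for givinostat and 4 to 4 for the combination against control, 4 to 6 for the combination and 5 to 5 for givinostat against sorafenib, and 0 to 0 for the departure from the sum. Over all genes, 141 changed in the combination against givinostat, 88 with median scaling, 319 without background correction, 68 without a detection filter, 81 with only the groups compared and 32 to 232 with an array left out. For sorafenib against control 479 changed, with 214, 75 and 164 to 417 in the last 3 of these settings. The departure from the sum called 2 genes, 1 with median scaling, without a filter, with detection on all 12 arrays or with the mean of probes, 16 without background correction and 0 with the replicate block. Leaving out an array gave 0 to 2 there, 2865 to 3886 for givinostat, 3571 to 4698 for the combination against control, 2920 to 3690 for the combination against sorafenib, 2547 to 3196 for givinostat against sorafenib and 4251 to 5018 for any difference. Median scaling split the calls into 1503 higher and 2287 lower for the combination (2201 and 2156 with quantile normalization), 1106 and 1996 for givinostat (1856 and 1653) and 79 and 366 for sorafenib (313 and 166), with medians over all genes of -0.09, -0.12 and -0.17. With the replicate block, CCL17 with sorafenib was lost (adjusted p = 0.0522) and CCL22 for the combination against sorafenib passed (adjusted p = 0.0256). TUBE1 with the combination turned to 0.36 (adjusted p = 0.0485) with the mean of its probes, against -0.01. The cause of these shifts was not tested. Background limits IL13 and IL5, and 3 arrays a group limit changes as small as those of CCL17.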

Other observations

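Some cytokine-related genes not named above are given here as values, chosen after their values were seen. OSM and IL12A are among the 29 other cytokine and chemokine genes already counted. MAF, NFKB2 and BATF are among the 41 genes counted with the transcription factors and kinases. OSM, a cytokine of the IL6 family, fell by 0.97 ± 0.15 with the combination and by 0.92 ± 0.15 with givinostat (adjusted p = 2.9e-04 and 5.73e-04, limma). IL12A, a subunit of interleukin 12 and interleukin 35, rose by 0.88 ± 0.15 and by 0.76 ± 0.15 (adjusted p = 6.27e-04 and 0.00209, limma). MAF, a factor of type 2 helper T cells, rose by 1.26 with the combination and by 1.24 with givinostat. NFKB2 fell by 0.77 and by 0.92, and BATF, an AP-1 partner, by 0.73 and by 0.62. ART3, the gene next to CXCL10 on chromosome 4, rose by 1.05 ± 0.22 with the combination (adjusted p = 0.00216, limma) and by 1.35 ± 0.22 with givinostat (adjusted p = 5.67e-04, limma), with -0.10 under sorafenib (adjusted p = 0.834), and 0.52 and 0.70 for those rises without background correction. NUP54, on the other side of CXCL11, fell by 0.52 with the combination and by 0.51 with givinostat.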
